A study of Mus musculus with 10 samples.

Results

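Red blood cells carry a distinctive set of miRNAs, and 5 mature miRNAs of that set were followed here in mouse retina: mmu-miR-451a, mmu-miR-144-3p, mmu-miR-144-5p, mmu-miR-486a-5p and mmu-miR-486b-5p. They were taken by name from the 1061 miRNAs of the deposited table, where all 5 were found. The retinas came from 5 wild-type C57BL/6J mice at postnatal day 34. Each animal had a goggle with a -20 D lens over 1 eye from postnatal day 24, for 10 days, and no lens over the other eye. The 10 libraries, both retinas of mice 61, 64, 65, 66 and 68, are labelled by side and animal. The labels do not say on which side the lens was, so the right retina was set against the left one of the same mouse and neither is called treated. The retinas were rinsed in RNAlater before freezing, and the labels mention no perfusion of the animals.

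miR-144 and miR-451a are cut from a shared primary transcript that the erythroid factor GATA1 switches on in mouse red-cell precursors, and miR-451a becomes the dominant miRNA of the mature red cell. miR-451a is known for its maturation by Argonaute 2 in place of Dicer, and mice without the locus have red cells that are sensitive to oxidative stress. miR-486 lies within Ank1, the gene of the red-cell membrane protein ankyrin-1, and is known from red cells and also from skeletal and cardiac muscle. In dissected tissue these miRNAs are commonly read as a measure of the blood left in it.

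The sequences of the chromosome 11 members are shown because their hairpins are processed in different ways and because their base composition returns in the results below. They are RefSeq sequences of the GRCm38.p6 build, plus strand, 5′ to 3′, and capitals mark the seed (bases 2 to 8) that pairs with target mRNAs.
mmu-miR-451a: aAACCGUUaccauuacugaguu
mmu-miR-144-3p: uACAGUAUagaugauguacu
mmu-miR-144-5p: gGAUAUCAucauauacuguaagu
mmu-miR-101a-3p: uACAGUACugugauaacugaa
The 3 members have 3 different seeds, and none of the 909 miRNAs of the table with a RefSeq sequence shared bases 2 to 8 with any of them. Bases 2 to 7 of miR-144-3p were shared by 1 miRNA of the table, miR-101a-3p, which is shown for that reason. The GC content was 36.4% for miR-451a, 30.4% for miR-144-5p and 30.0% for miR-144-3p, against a median of 47.8% over the 424 tested miRNAs with a sequence.

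The hairpins are shown to place the mature RNAs, which are in capitals here.
Mir144: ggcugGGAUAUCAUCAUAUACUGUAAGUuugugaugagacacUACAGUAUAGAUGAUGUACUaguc
Mir451a: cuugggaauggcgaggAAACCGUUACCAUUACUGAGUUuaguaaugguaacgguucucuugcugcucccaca
In a predicted fold of the 66-base Mir144 hairpin, with 27 base pairs, miR-144-5p lay wholly before the terminal loop and miR-144-3p wholly after it. In the 72-base Mir451a hairpin, with 30 base pairs, the mature miR-451a ran from base 17 to base 38, so that 18 of its 22 bases lay on the 5′ side of the stem and the other 4 were the 4 bases of the terminal loop. This is the short-stem layout for which miR-451a is known.

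On the GRCm38 build, miR-144-5p lay on chromosome 11 from 78073010 to 78073032, miR-144-3p from 78073047 to 78073066 and miR-451a from 78073186 to 78073207. The whole group spans 198 bases, with 119 bases between miR-144-3p and miR-451a. No annotated gene other than the miRNA genes overlaps them, and the end of Eral1, a gene of the opposite strand, was 169 bases from miR-451a. Mir451b, the hairpin annotated on the strand opposite to Mir451a, was not analysed here. miR-486a-5p (chromosome 8, 23142587 to 23142608, plus strand) and miR-486b-5p (23142627 to 23142648, minus strand) are read from opposite strands of the same short stretch in an intron of Ank1. The 5p RNAs of these hairpins are known to be identical, so the split of reads between miR-486a-5p and miR-486b-5p may depend on how the reads were assigned.

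The deposited values are normalised counts in which each library has nearly the same total, from 17312269 to 17312436, so a value says mainly where a miRNA ranked within that library, and the sequencing depth is unknown. Retinal identity was clear from the markers. The photoreceptor miRNA miR-182-5p stood at 9840430 in all 10 libraries. Of the other tissues, the muscle miRNA miR-133a-3p stood at 1596 in the left library of mouse 68 and at most 359 elsewhere, and miR-184-3p of lens and cornea at 22384 in the right library of mouse 65 and at most 2117 elsewhere.

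miR-451a was a minor miRNA of these retinas, and its level differed up to 2.93-fold between libraries, or 1.85-fold without the left library of mouse 65. In left retina it stood at 71.2 normalised counts in mouse 61, 58.1 in mouse 64, 24.3 in mouse 65, 58.9 in mouse 66 and 39.7 in mouse 68. In right retina it stood at 51.3, 38.5, 39.5, 44.6 and 60.2 in the same order of mice. The highest and the lowest library were both left retinas, those of mice 61 and 65, and the left and right values overlapped. The left mean was 50.4 ± 18.4 and the right mean 46.8 ± 9.03 (SD, n = 5 each), and the ranks lay between 284 and 401 of 1061. In bulk tissue, fewer red cells and less RNA per red cell cannot be told apart.

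miR-144-3p, the strand of the miR-144 hairpin known in human erythroid cells to repress NRF2, a regulator of the oxidative stress response, was the lowest and the most variable member. Its left values were 24.8 normalised counts in mouse 61, 16.4 in 64, 4.43 in 65, 12.2 in 66 and 14.5 in 68. Its right values were 9.45, 5.90, 8.24, 11.9 and 7.60. The left library of mouse 61 was again the highest and that of mouse 65 the lowest, and the other 8 values lay between, with overlap of the sides. It passed the filter on low values, a minimum of 10 for the mean of the libraries, through its left retinas, since the left mean was 14.5 ± 7.34 and the right mean 8.61 ± 2.22 (SD, n = 5 each), and 5 of its 10 values were under 10.

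miR-144-5p, the opposite arm of that hairpin, was steadier. It stood at 26.2, 26.4, 18.1, 23.3 and 25.2 normalised counts in the left retinas of mice 61, 64, 65, 66 and 68, and at 23.1, 22.5, 15.5, 25.6 and 21.2 in their right retinas. Both retinas of mouse 65 were below the other 8 libraries, which lay between 21.2 and 26.4. miR-144-5p was above miR-144-3p in 10 of 10 libraries, by 1.06-fold in the left retina of mouse 61 and by 4.08-fold in that of mouse 65, with a median of 2.03. Adapter ligation favours some sequences, so such ratios of normalised counts are not molar ratios.

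The miR-486 pair was far higher in normalised counts than the chromosome 11 members. It varied less than miR-451a and miR-144-3p on the log2 scale, and about as much as miR-144-5p. miR-486a-5p stood at 2508 in mouse 61, 2578 in 64, 2820 in 65, 2578 in 66 and 2948 in 68 on the left, and at 3480, 3345, 2508, 3023 and 4352 on the right. miR-486b-5p stood at 2646, 2820, 3169, 2308 and 3671 on the left and at 3671, 3480, 2578, 2948 and 3671 on the right. The right library of mouse 68 held the highest miR-486a-5p value, while the highest miR-486b-5p value was shared by 3 libraries. Their ranks lay between 66 and 83 of 1061, and the ratio of miR-486b-5p to miR-486a-5p lay between 0.844 and 1.25. Together they stood at 72.4 times the miR-451a value in the left retina of mouse 61 and at 246 times in that of mouse 65. The order of levels of the 5 miRNAs was the same in 10 of 10 libraries from the miR-486 pair down through miR-451a and miR-144-5p to miR-144-3p, whereas miR-486a-5p and miR-486b-5p changed places between libraries. The neighbours in that order below the miR-486 pair overlapped in range, miR-144-3p (4.43 to 24.8) with miR-144-5p (15.5 to 26.4) and miR-144-5p with miR-451a (24.3 to 71.2).

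**Figure D1:**
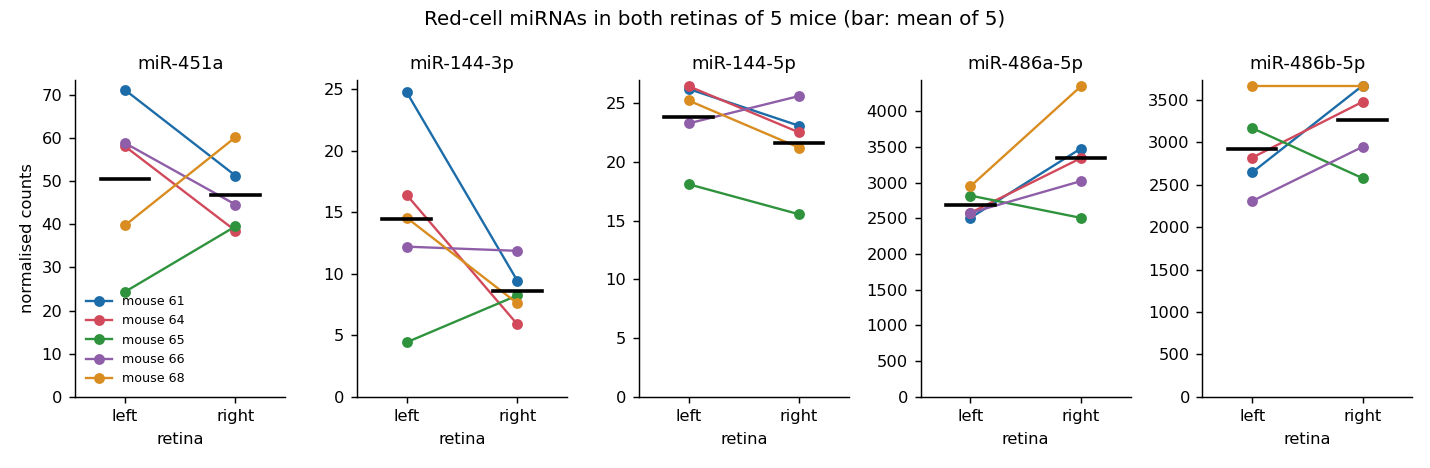
Normalised counts (y axis, linear from 0, a separate scale for each miRNA) of the 5 red-cell miRNAs in left and right retina (x axis). Each coloured line joins the eyes of 1 mouse and the black bars are means of 5; the left and right values overlap for all 5 miRNAs, and miR-486a-5p is higher on the right in 4 of 5 mice.

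The right retina was compared with the left one to ask if red-cell miRNAs differed within animals that wore a lens on 1 side. No red-cell miRNA passed the test. With limma, 0 of the 5 had an adjusted p under 0.05, as did 0 of all 484 miRNAs tested (0%), and 12 of the 484 were at an unadjusted p under 0.05. Left and right values did not overlap for 0 of the 5 members and for 0.826% of the miRNAs tested. The median log2 fold change was -0.035 over the 5 members and -0.011 over all miRNAs tested, with 2 members above and 3 below 0.

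On the chromosome 11 transcript, the log2 fold change of miR-451a, right minus left, was -0.035 (SE 0.23, 95% interval -0.60 to 0.53), with an adjusted p of 1 by limma. It was higher on the right in mice 65 and 68 and lower in 61, 64 and 66, with differences from -0.58 to 0.68, and its sign turned when mouse 61, 64 or 66 was left out (0.073, 0.10 and 0.055). miR-144-3p had a log2 fold change of -0.55 (SE 0.38, interval -1.48 to 0.37), lower on the right in 4 of 5 mice, with an adjusted p of 0.958. Mouse 65 was the exception with a difference of 0.77, and without it the log2 fold change was -0.88 with an adjusted p of 0.350. Over all 484 miRNAs tested, 62 had an unadjusted p under 0.05 by limma without mouse 65, against 12 with all mice. miR-144-5p had a log2 fold change of -0.14 (SE 0.14, interval -0.47 to 0.19), lower on the right in 4 of 5 mice, again with an adjusted p of 0.958. A value lower on the right in at least 4 of 5 mice was found for 2 of the 5 members and for 17.8% of all miRNAs tested. The arms of the miR-144 hairpin did not move alike in mice 65 and 66, where their differences had opposite signs.

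For miR-486a-5p the log2 fold change was 0.29 (SE 0.11, interval 0.019 to 0.57), higher on the right in 4 of 5 mice, with an adjusted p of 0.958 by limma. Its differences were 0.47 in mouse 61, 0.38 in 64, -0.17 in 65, 0.23 in 66 and 0.56 in 68. miR-486b-5p had a log2 fold change of 0.17 (SE 0.12, interval -0.13 to 0.46), higher on the right in 3 mice, lower in mouse 65 and equal in mouse 68. A value higher on the right in at least 4 of 5 mice was found for 1 of the 5 members and for 14.9% of all miRNAs tested. With the normalised values of the pair added into 1, the log2 fold change was 0.23 with an adjusted p of 0.960 by limma. Each miRNA was normalised before the values were added, so this sum can still depend on how identical reads were split. Without mouse 65 the log2 fold changes were 0.41 for miR-486a-5p and 0.28 for miR-486b-5p, with adjusted p of 0.241 and 0.336, and without mouse 61 that of miR-486b-5p was 0.090. Leaving out mouse 65 also took the count of all 484 miRNAs at an unadjusted p under 0.05 by limma from 12 to 62.

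The opposite arm of the miR-486a hairpin, miR-486a-3p, moved with miR-486a-5p in every mouse. Its values were 47.9, 38.1, 67.8, 62.7 and 65.7 normalised counts in the left retinas of mice 61, 64, 65, 66 and 68, and 102, 65.03, 40.4, 81.1 and 84.8 in the right ones. Its log2 fold change of 0.37 (SE 0.25) had an adjusted p of 0.958. miR-486b-3p, the opposite arm of the other strand's hairpin, was at 13.7 in the right retina of mouse 65 and at most 0.823 in the other 9 libraries.

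**Figure D2:**
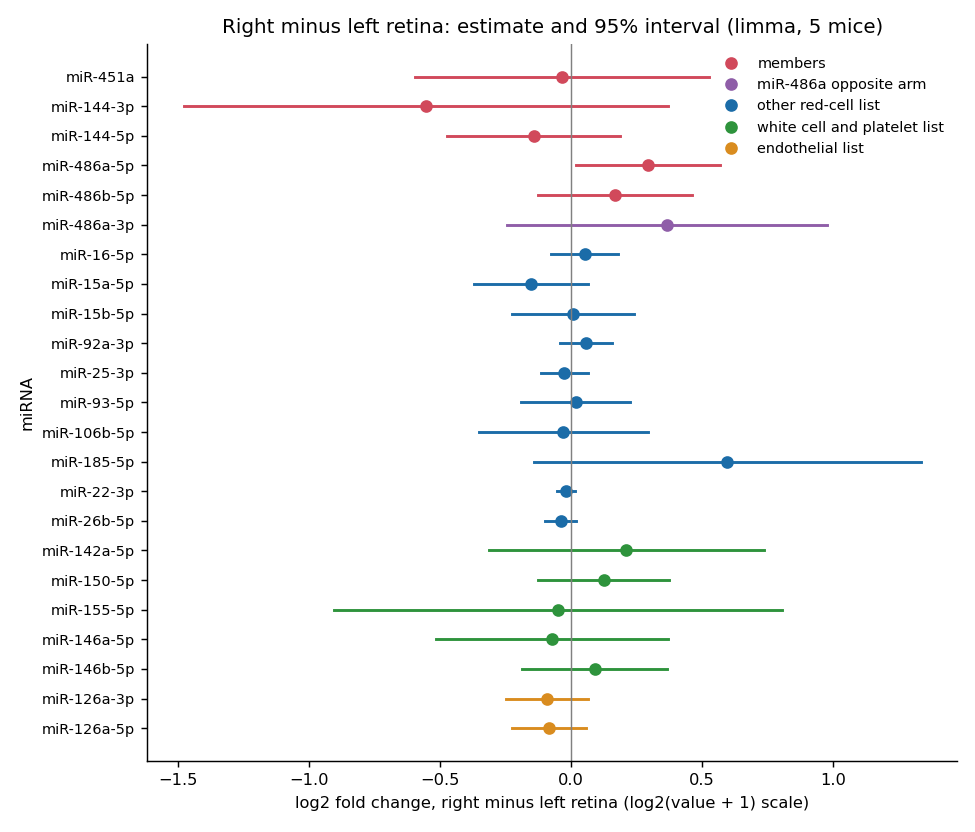
Log2 fold change, right minus left retina, on the log2(value + 1) scale (x axis), for the red-cell members and for related lists (rows). Points are limma estimates over 5 mice and lines are 95% intervals; the miR-486a-5p interval lies above 0 before adjustment for 484 miRNAs, and that of miR-144-3p is the widest of the members.

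The eyes of a mouse share its blood, so the levels were also compared between animals. No member passed the test for a difference between mice. By limma's F test of the 4 mouse terms, 0 of the 5 passed, and 8 of the 484 miRNAs tested did (1.65%). The adjusted p was 0.600 for miR-451a, 0.751 for miR-144-3p, 0.540 for miR-144-5p, 0.613 for miR-486a-5p and 0.600 for miR-486b-5p. For miR-451a, the SD of the 5 mouse means was 0.35 on the log2 scale, and the eyes of a mouse differed by 0.54 on average. For miR-144-3p these values were 0.44 and 0.86, and for miR-486a-5p 0.16 and 0.36. They are unlike measures, since a mouse mean averages both eyes, so which is larger does not tell if mice or eyes differ more. miR-144-5p had an SD of mouse means of 0.23 and a mean difference between eyes of 0.20, with mouse 65 low in both eyes, and its F went from 2.19 to 0.0657, with an adjusted p of 0.988, when that mouse was left out.

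In the list of other miRNAs abundant in red cells, miR-26b-5p, at ranks 13 to 18 of 1061, did differ between mice, with an adjusted p of 0.00167 by limma. It was at 81300 normalised counts in the left and 76000 in the right retinas of mice 61 and 68, and between 51974 and 57479 in mice 64, 65 and 66. The neuronal miR-128-3p divided the same animals the other way, at 1535 to 2117 in mice 61 and 68 and at 4352 to 4871 in the others, with an adjusted p of 0.00390. The labels name no batch for these mice. Normalisation fixes the value at many ranks, and both eyes held the same miR-26b-5p value in mice 64, 65 and 66. Such ties can lower the spread that the test uses. How much of miR-26b-5p came from red cells was not tested. The geometric mean of miR-451a was 54.4 in mice 61 and 68 and 42.3 in mice 64, 65 and 66, and that of miR-486a-5p 3253 and 2793, which are descriptions of a division seen in other miRNAs.

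The members fell into separate patterns across the 10 libraries. Pearson's r of the log2 values with miR-451a was 0.74 for miR-144-3p and 0.57 for miR-144-5p, but 0.032 for miR-486a-5p and -0.27 for miR-486b-5p. The r between the miR-486 rows was 0.80. These values describe 10 libraries of 5 mice, which are not independent and share their normalisation. With any 1 of the 5 mice removed, the r with miR-451a lay between 0.53 and 0.92 for miR-144-3p, between 0.11 and 0.69 for miR-144-5p and between -0.28 and 0.19 for miR-486a-5p. The lowest value for both arms of miR-144 was found without mouse 65, whose left library was low in all 3 chromosome 11 members. Within mice the division did not hold for miR-144-5p. Over the right minus left differences of the 5 mice, its r was -0.38 with miR-451a and 0.31 with miR-144-3p. It was -0.15 with miR-486a-5p and 0.39 with miR-486b-5p. The differences of miR-451a and miR-144-3p had an r of 0.59. The 5 red-cell miRNAs did not follow 1 common level in these libraries.

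Single libraries stood high or low in one pattern, in the other or in both. In the left retina of mouse 61, miR-451a was 0.60 above its own log2 mean and miR-144-3p 1.18 above, while the miR-486 pair was 0.23 below. In the left retina of mouse 65, miR-451a was 0.91 and miR-144-3p 1.07 on the log2 scale below the mean, and the mean of the miR-486 pair was 0.011 below it. The right retina of mouse 68 was above the mean for miR-451a (0.36) and for miR-486 (0.41), and below it for miR-144-3p. The left retina of mouse 68, with its high muscle miR-133a-3p, had 2948 of miR-486a-5p, the highest left value, and 3671 of miR-486b-5p, also the highest on the left. The other muscle miRNAs were also highest there, miR-133b-3p at 113, miR-1a-3p at 26.6 and miR-206-3p at 6.29. The right retina of mouse 68 had the lowest miR-133a-3p of all libraries, 241, with 4352 of miR-486a-5p and 3671 of miR-486b-5p. The right retina of mouse 65, with its high miR-184-3p, had the lowest miR-486a-5p and miR-486b-5p of the right retinas. The other markers of the lens and surface epithelium list were there within the range of the other right retinas. miR-205-5p stood at 25.6 (21.2 to 49.4 in all right retinas) and miR-203-3p at 213 (194 to 214). Whether muscle or lens tissue had a part in the miR-486 values was not tested.

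The GC content of a miRNA was related to its deviation in several libraries, and this trend moved with the members. Per 10 points of GC, the log2 values of 424 miRNAs fell by 0.153 in the left retina of mouse 61 and rose by 0.122 in that of mouse 65, the extremes of the 10 libraries. They are also the libraries with the highest and the lowest miR-451a and miR-144-3p, which are poor in GC. The r of the trend over 10 libraries was -0.73 with miR-451a, -0.87 with miR-144-3p, -0.31 with miR-144-5p, 0.47 with miR-486a-5p and 0.50 with miR-486b-5p. The trend of the right eye was above that of the left in mice 61, 64, 66 and 68, by 0.039 to 0.19, and below it by 0.17 in mouse 65. These signs are those of the miR-486a-5p differences and the opposite of the miR-144-3p differences in 5 of 5 mice. With the trends removed, the SD over libraries went from 0.44 to 0.37 for miR-451a and from 0.66 to 0.54 for miR-144-3p, and their r from 0.74 to 0.62. The r of miR-144-5p with miR-451a went from 0.57 to 0.23. The log2 fold change of miR-144-3p, right minus left, was then -0.46 with an adjusted p of 0.940, that of miR-144-5p went from -0.14 to -0.054, and that of miR-451a was 0.027. The trend was fitted to the values of these same libraries, so miRNAs poor in GC tend to run against it by construction. This holds for the r values and for the signs within mice, and no r is given for other miRNAs poor in GC. What part base composition had in the values of any member was not tested.

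**Figure D3:**
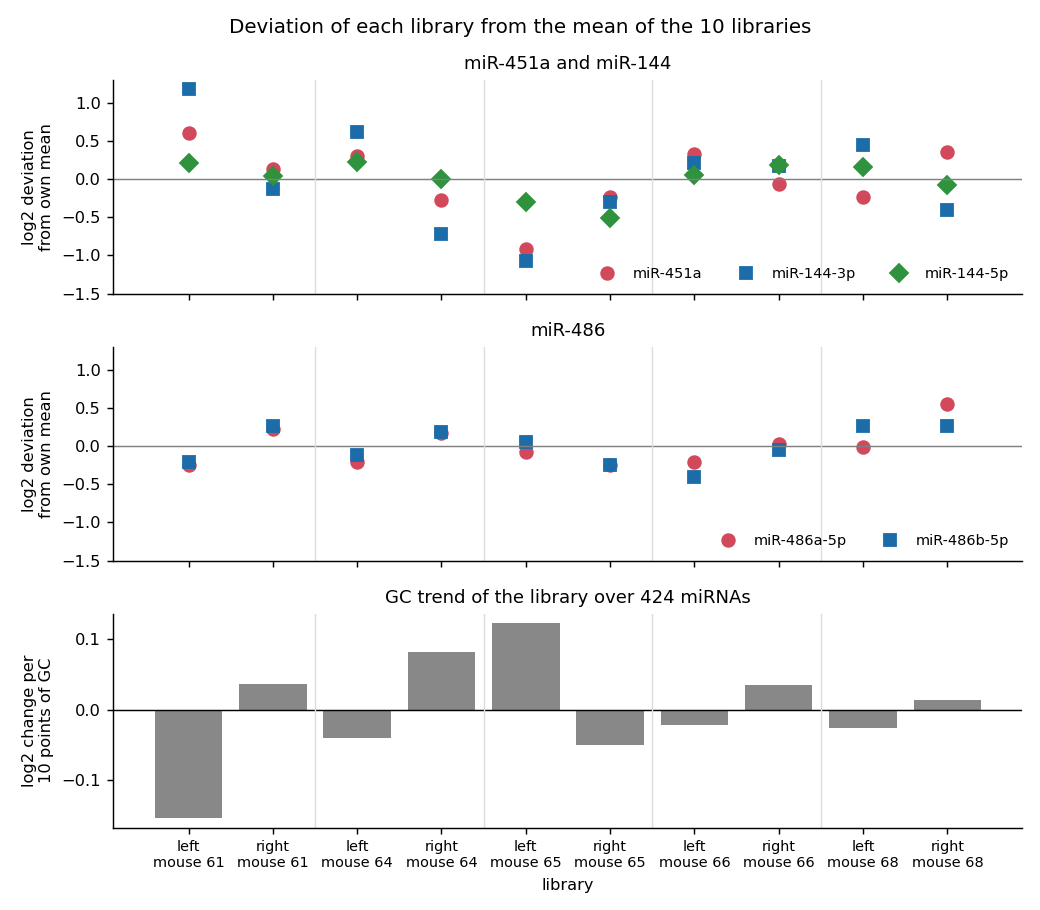
Log2 deviation of each library from the miRNA's own mean over 10 libraries for the chromosome 11 members (top) and the miR-486 pair (middle), and the GC trend of the library in log2 units per 10 points of GC (bottom). Libraries are ordered by mouse on the x axis; the left library of mouse 61 has the highest and that of mouse 65 the lowest miR-451a and miR-144-3p, and these libraries have the lowest and the highest GC trend.

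The miRNAs nearest in pattern to miR-451a were outside the red-cell lists. By Pearson's r over the 10 libraries, they were miR-181b-1-3p (0.87), the smooth muscle miR-145a-3p (0.82), the leukocyte miR-142a-5p (0.82), miR-467c-5p (0.79) and miR-598-5p (0.79), and miR-144-3p ranked 12 and miR-144-5p 56 of 479. miR-181b-1-3p, the minor arm of a miR-181 hairpin, lay between 58.9 and 164 normalised counts. For miR-142a-5p, the left library of mouse 65 was lowest at 51.9, and the remaining 9 ranged from 100.4 to 149. Without mouse 65, or without mouse 68, 1 of the 5 was still among the 5 nearest. The lowest r with any 1 mouse left out was 0.44 for miR-145a-3p and 0.53 for miR-142a-5p.

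The neighbours of the miR-486 pair were a different set. Over the same libraries, the mean of miR-486a-5p and miR-486b-5p was followed most closely by miR-1947-5p (r of 0.95), miR-181a-2-3p (0.88), the imprinted miR-127-3p (0.84), miR-485-5p (0.84) and miR-666-5p (0.83). miR-1947-5p lay between 155 and 213 normalised counts and kept an r of at least 0.94 when any 1 mouse was left out. The GC content of miR-1947-5p, miR-181a-2-3p and miR-127-3p was 59.1% and that of miR-666-5p 68.2%, above the median of 47.8%. Of the neighbours of miR-451a, miR-181b-1-3p had 38.1% and miR-142a-5p 33.3%, below it. No sequence was available for its neighbours miR-145a-3p, miR-467c-5p and miR-598-5p, or for miR-485-5p, so their GC content is unknown here.

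The spread of the members was set against all tested miRNAs. The SD of the log2 values over 10 libraries was 0.44 for miR-451a and 0.66 for miR-144-3p, which ranked 86 and 39 of 484 from the highest. It was 0.24 for miR-144-5p, 0.26 for miR-486a-5p and 0.24 for miR-486b-5p, close to the median of 0.28. The plot of level and spread sets these values beside the level of each miRNA.

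**Figure D4:**
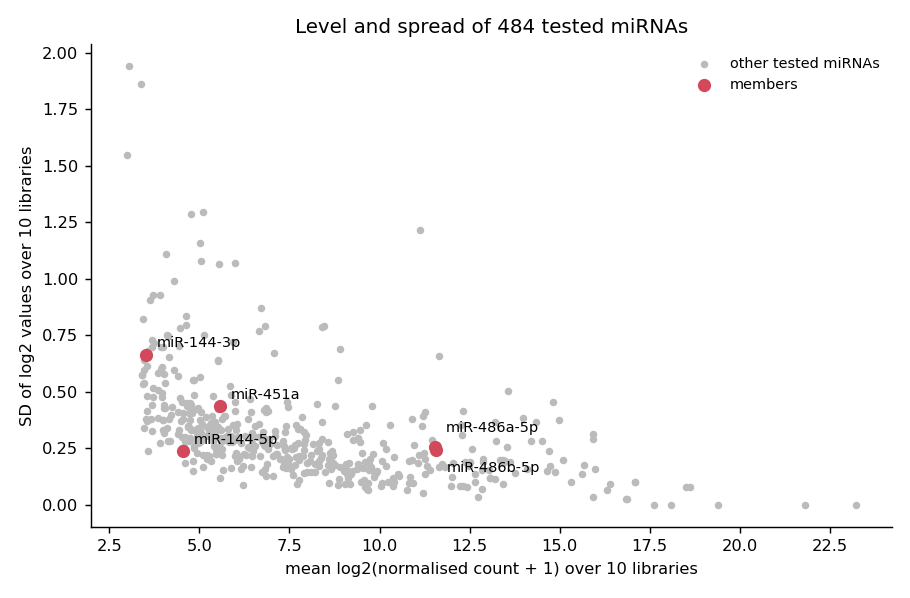
Mean log2(normalised count + 1) over 10 libraries (x axis) against the SD of the log2 values (y axis) for the 484 tested miRNAs, with the 5 red-cell members in red. miR-144-3p and miR-451a have SDs of 0.66 and 0.44, and the other members lie between 0.24 and 0.26.

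No other miRNA of the red-cell list passed between the eyes either. Of 12 such miRNAs, 10 passed the filter and 0 the test, with 5 fold changes on either side of 0 and a median of -0.0057 on the log2 scale, against -0.011 over all miRNAs tested. miR-16-5p, a cell-cycle regulator found in most tissues, lay between 38949 and 49233 normalised counts, highest in the right retina of mouse 68. miR-22-3p was at 117214 or 121034 in all libraries. The largest log2 fold change of the list was 0.60 (SE 0.31) for miR-185-5p, a miRNA of 8.85 to 47.5 normalised counts. How much of this list came from red cells was not tested. Its summed level, from 263028 to 288671 on the left and from 265107 to 287579 on the right, was far above that of the members (4980 to 6699 on the left and 5149 to 8112 on the right).

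Markers of the other cells that blood and vessels bring were measured beside the members. Of 7 miRNAs of white cells and platelets, 5 were tested and 0 passed, with 3 above and 2 below 0 and a median of 0.089. The lymphocyte miR-150-5p lay between 1434 and 2185 normalised counts and miR-146b-5p between 1098 and 1675. The myeloid and platelet miR-223-3p was between 0 and 3.70, and miR-142a-3p between 1.59 and 13.2. Both endothelial miRNAs, miR-126a-5p (log2 fold change -0.083) and miR-126a-3p (-0.092), were below 0 without passing. Their summed level was 7870 to 8926 on the left and 7427 to 9110 on the right, while the sum of miR-451a and both miR-144 arms was 46.9 to 122 on the left and 63.3 to 89.0 on the right.

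The lists of other tissues had 0 miRNAs past the test as well. The medians of the log2 fold change were 0.20 for the 3 tested miRNAs of pericytes and smooth muscle, led by miR-143-3p (0.0030) and miR-145a-5p (0.29), and 0.28 for the 4 of the pigment epithelium, led by miR-204-5p (0) and miR-211-5p (0.24). They were 0 for the 3 of photoreceptors, with miR-182-5p and miR-183-5p identical in all libraries, and -0.011 for the 4 of neurons, led by miR-181a-5p, also identical, and miR-124-3p (0.019). Each identical miRNA, miR-204-5p included, kept its rank in all libraries, where normalisation fixes the value, so its 0 does not measure cell content. The remaining photoreceptor miRNA, miR-96-5p, had a log2 fold change of -0.14 (SE 0.11). The 2 tested muscle miRNAs, miR-133a-3p and miR-133b-3p, had a median of -0.38, the 3 of lens and surface epithelium, led by miR-184-3p and miR-203-3p, of 0.078, and the 2 of liver, miR-192-5p and miR-194-5p, of -0.014. Without mouse 68 the muscle median was 0.096, and without mouse 65 that of lens and surface epithelium was -0.11. The liver marker miR-122-5p was at most 1.3.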

How the data were processed

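Small RNA libraries (TruSeq Small RNA, 50 ng of input, per the labels' protocols) of 10 retinas were analysed. The deposited values are a signal: normalised counts per mature miRNA, with the same value in every library at 342 ranks, as quantile normalisation gives. Depth is unknown and no counting interval can be given. The submitters' processing notes list Partek and Bowtie as tools and both GRCm38 and mm10 as builds, without versions. How reads were trimmed and identical sequences assigned is not given in the sources.

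miRNAs with a mean of at least 10 (484 of 1061) entered limma 3.58.1 (R 4.3.3) as log2(value + 1), a scale that compresses changes of low miRNAs. The model had terms for side and mouse, a mean-variance trend and Benjamini-Hochberg adjustment over all tested (threshold 0.05, two-sided). The mouse terms were tested together with an F test. The fits were tested on simulated data. Mouse was a block because both retinas of a number come from 1 animal. Their deviations from the side means correlated by 0.0893 to 0.382 across miRNAs, against -0.338 to 0.355 (median -0.0824) for eyes of different mice, so the ranges overlap.

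The named miRNAs are the members, the 5 nearest to miR-451a and to miR-486, the 2 highest of each of 11 lists, list members past a threshold, and muscle or lens miRNAs with a library over 3 times the next. miR-101a-3p was named for its seed, and miR-16-5p, miR-96-5p, miR-122-5p, miR-142a-3p, miR-185-5p, miR-205-5p and miR-223-3p were chosen after their values were seen. Members and lists were chosen with earlier results of these data known. Sequences are from RefSeq (3 of 5 members matched), folds from RNAfold 2.7.2 and annotation from GENCODE M21 (GRCm38). Starts equalled RefSeq's for 908 of 908 miRNAs on the same chromosome, and ends are given as the last base. The right minus left p-values rest on the spread, over these 5 animals, of the differences between the eyes. The F test sets the differences between mice against that same spread.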

Additional observations from a re-analysis of the deposited data

Results flagged for a closer look

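None of the 5 red-cell miRNAs had a library that stood apart from the other 4 of its side by Dixon's test. Of the 66 groups of 5 examined, 8 did so, all of them of other named miRNAs that passed the filter on low values. Chance flags about 1 in 20 groups, but that share does not hold where normalisation ties the other 4 values, as for miR-22-3p and miR-124-3p, for which any step is flagged. miR-133a-3p stood at 1596 in the left retina of mouse 68, against 273 to 331 in the other left retinas, and miR-184-3p at 22384 in the right retina of mouse 65, against 1898 to 2117. In the same libraries, miR-1947-5p (181) was high and miR-203-3p (194) low in the left retina of mouse 68, and miR-22-3p (121034) and miR-124-3p (88655) were high and miR-181a-2-3p (8035) low in the right retina of mouse 65. miR-126a-3p was low in the right retina of mouse 64 (1535).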

How the results depend on the processing

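Over the alternatives run, no red-cell miRNA passed in either comparison, and 0 miRNAs passed right against left, also in the fit with no replicate block, where the adjusted p of each was 1 and 13 miRNAs had an unadjusted p under 0.05. The log2 fold change of miR-451a turned sign with the GC trends removed (0.027, an alternative chosen after seeing the data) and when single mice were left out (-0.21 to 0.10). The r of miR-486a-5p with miR-451a turned sign as Spearman's rho (-0.079) and over the mice left out (-0.28 to 0.19). Also chosen after seeing the data, the muscle median without mouse 68 was 0.096 and the lens median without mouse 65 was -0.11, both of turned sign. The number of miRNAs that differed between mice was 8, and it was 5 without a mean-variance trend, 16 without a side term, 13 of 424 with GC trends removed and 3 to 7 with a mouse left out (fewest without mouse 68). Of the 5 miRNAs nearest to miR-451a, 1 was among the nearest by Spearman's rho and 1 to 4 with a mouse left out. The cause was not tested. With a minimum mean of 100 the chromosome 11 members were below the filter and gave no value. The depth is unknown, so what counting error adds cannot be given.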
